A study of Mus musculus with 11 samples.

Results

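Imprinted genes are expressed mainly from the chromosome inherited from 1 parent. A list of 47 mouse imprinted genes was followed in RNA from embryonic cortex with and without the chromatin remodeller gene Chd8. Members were the rows of the deposited expression table whose gene name held a listed symbol. All 47 symbols were found, at 46 of the table's 24138 loci, because Snrpn and Snurf share a locus. Of these, 39 loci reached a mean of 1 FPKM (fragments per kilobase of transcript and per set number of mapped fragments, a level corrected for length and library size) and were tested among 12672 such loci, and 7 did not. The samples were cortices of mouse embryos at stage E14.5, with 3 control and 2 conditional knockout (cKO) RNA libraries. Control replicate 1 was labelled Chd8 c/+, control replicates 2 and 3 were labelled Chd8 c/c, and both cKO libraries were labelled Chd8 c/c with Emx1-cre, so every library carried at least 1 floxed allele and the controls carried no Cre. Emx1-cre drives recombination in dorsal telencephalic progenitors and their progeny, and other cells of a dissected cortex keep Chd8. The labels do not say whether a library came from 1 embryo or a pool, so p-values measure only the spread between these libraries. The 6 ATAC-seq samples of the series were not analysed here.

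Imprinted genes lie in clusters, each governed by a control region that carries DNA methylation on the allele from 1 parent only. Within a cluster, protein-coding genes and long noncoding RNAs are often expressed from opposite parental alleles, and some noncoding RNAs silence their neighbours on the same chromosome. Many of these genes set fetal growth, and in the brain they are most prominent in neurons and in the hypothalamus. CHD8 has been described as a partner of the insulator protein CTCF, which binds the control region between Igf2 and H19 on the maternal allele. The members were assigned from general knowledge to 26 paternally expressed genes, 10 maternally expressed genes and 11 genes whose imprinting depends on tissue or isoform, is only a bias, or whose parental origin was not taken as settled, called context-dependent here. The RNA libraries do not separate the 2 alleles, so each value is the sum over both.

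Chd8 was at 31.5, 30.02 and 31.8 FPKM in controls 1 to 3 while the 2 cKO libraries held 19.3 and 15.1 FPKM, without overlap. The tissue label was checked with 12 cortical markers, all of which were at 9.46 FPKM or more in every library. Control replicate 2 stood apart. It was the highest library for 10 of these 12 markers, whose summed level was 805, 1796 and 1256 FPKM in the 3 controls, in order, and 1159 and 779 FPKM in the cKO. The summed FPKM of a library was between 418191 and 484296, and the depth behind the values is unknown. Because control replicate 2 was also the lowest library for most imprinted members, results are given with and without it. In whole tissue, fewer cells of a type and less RNA per cell cannot be told apart.

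No imprinted member passed the test between cKO and control. In limma with Benjamini-Hochberg adjustment over all loci, none of the 39 member loci was higher and none was lower at an adjusted p under 0.05, where 0.0158% of all tested loci were higher and 0.0316% were lower. Chd8, the targeted gene, was not called either, at a limma adjusted p of 0.575. A lack of calls among members therefore does not show that they were unchanged. At an unadjusted p under 0.05, 1 member was higher (Dio3) and 1 was lower (Cdkn1c), against 3.08% and 4.37% of all loci. Both cKO libraries exceeded every control at 4 members (Dio3, Dio3os, Mest and Ube3a), or 10.3% against a background of 13.4%. They lay below every control at 4 others (Cdkn1c, Meg3, Mkrn3 and Gnas), again 10.3%, against 15.6%. In either direction the 8 members made up 20.5%, against 29.0% of all loci, so these shares were under the background. Dividing by the upper quartile left Cdkn1c and Meg3 among the lower members and Dio3, Dio3os and Mest among the higher ones, and quantile normalization left Cdkn1c and Mkrn3 among the lower members. The shares of all loci under these scalings were not computed.

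The authors' deposited table, whose comparison uses another test, marked 4 members as significant. Dio3os and Asb4 were marked higher in the cKO, or 4.88% of the 41 members that it tested against 1.21% of all loci it tested. Cdkn1c and Ddc were marked lower, also 4.88%, against 3.0% of all loci. The q-value of each of the 4 in the authors' deposited table was 0.00331.

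**Figure D1:**
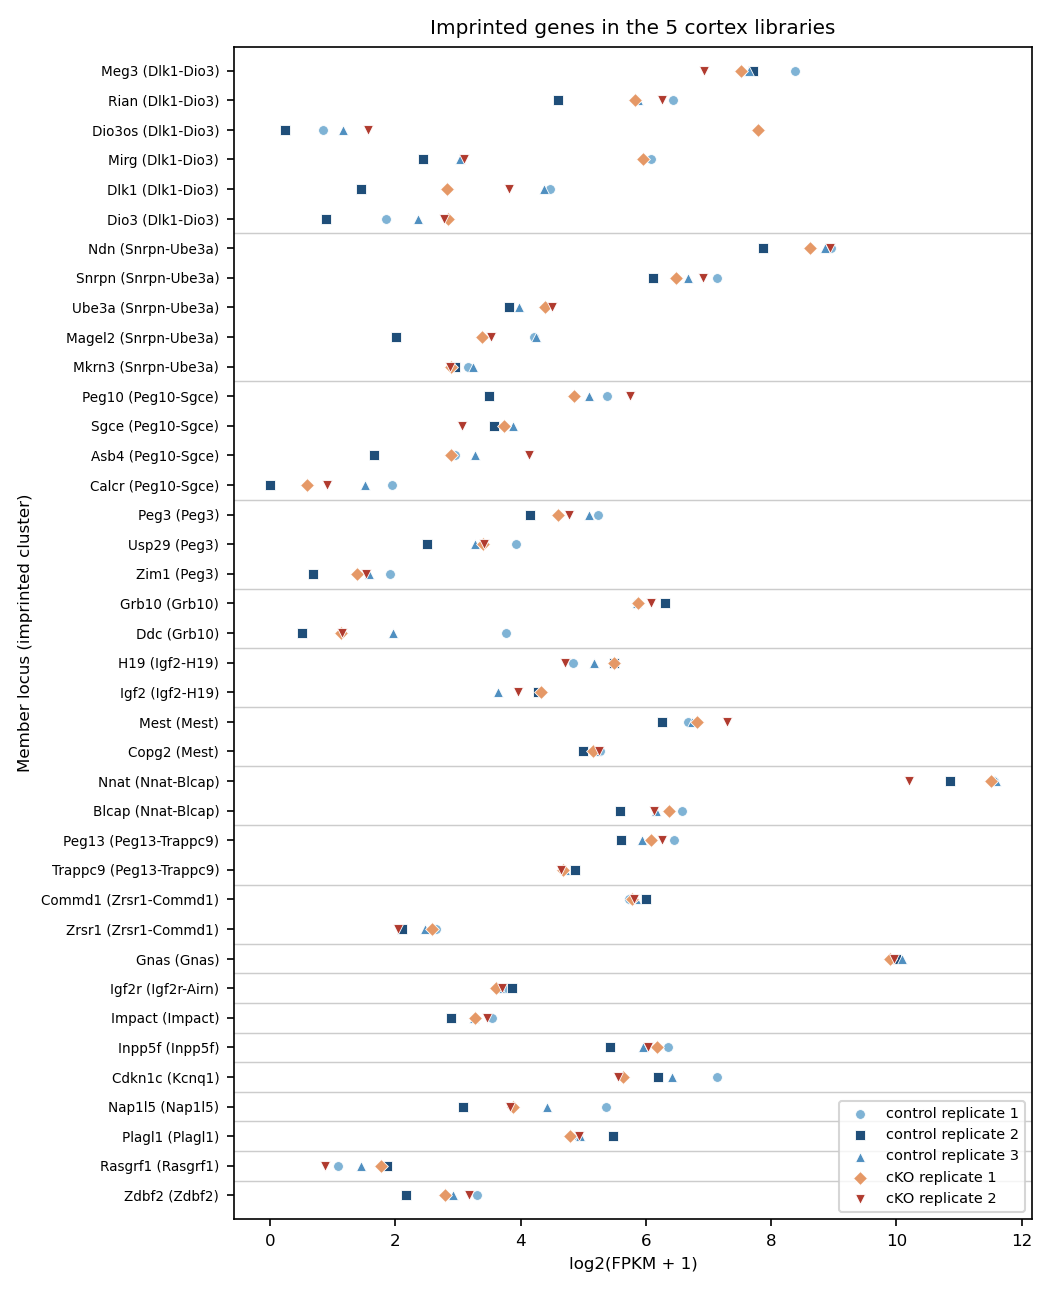
Level of the 39 tested imprinted loci in each library as log2(FPKM + 1), 1 row per locus, grouped by imprinted cluster with lines between clusters. Symbols are the 3 control and 2 cKO libraries, and control replicate 2 (dark squares) is the lowest library in 24 of the 39 rows.

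Paternally and maternally expressed members did not stand apart as classes. The median log2 change (cKO relative to control, on a log2(FPKM + 1) scale that makes changes of low genes look smaller) was 0.01 for 20 paternally expressed loci, 0.00 for 8 maternally expressed loci and -0.03 for 11 context-dependent loci, beside -0.02 for all tested loci. Of the 39 loci, 19 had a positive and 20 a negative change, so signs were evenly split. Without control replicate 2 the medians were -0.17, -0.20 and -0.03, and 28 of 39 changes were negative. Without control replicate 1 the medians moved the other way, to 0.30 and 0.16 for paternally and maternally expressed loci and to -0.10 for context-dependent loci, and 24 of 39 changes were positive. The median of all loci was -0.02 and -0.01 in these settings.

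**Figure D2:**
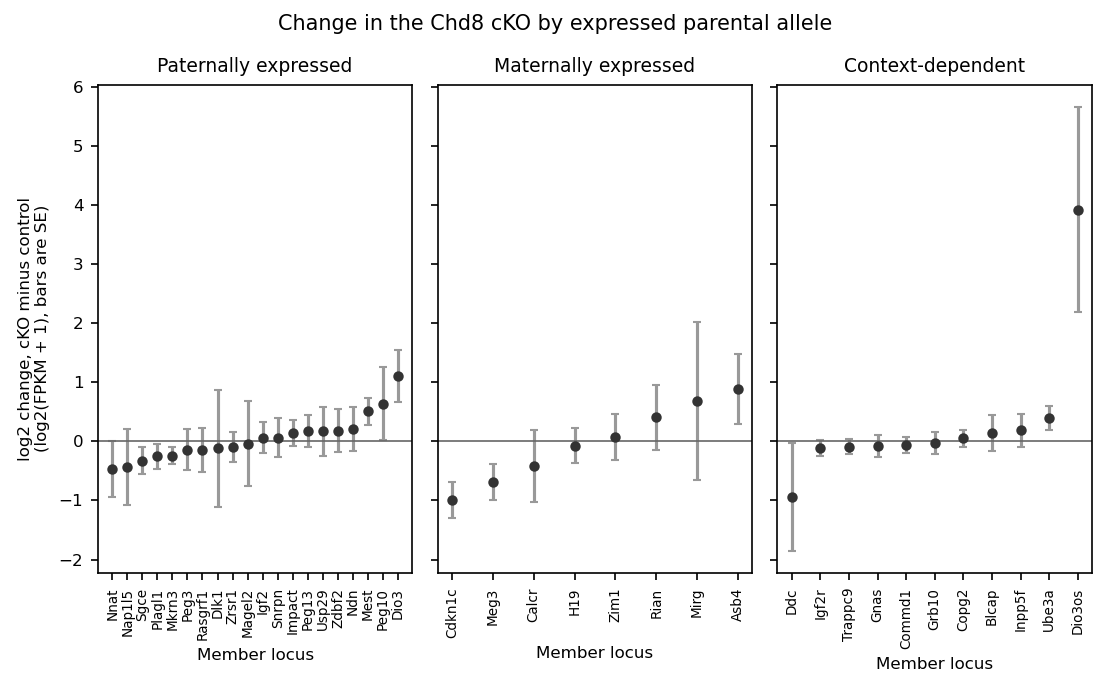
Log2 change in the cKO with its standard error for each tested member, in panels of paternally expressed, maternally expressed and context-dependent loci, each ordered by change. Most changes lie within their error of 0, with Cdkn1c at -0.99 and Dio3 at 1.11 among the exceptions and Dio3os carrying the widest error.

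Among regulators of growth, Cdkn1c was lower in both cKO libraries than in every control. Cdkn1c (chromosome 7, 143458339 to 143461059 in GRCm38) encodes an inhibitor of cyclin-dependent kinases that limits the division of progenitors and is expressed from the maternal allele. It was at 140.5, 72.5 and 84.4 FPKM in controls 1 to 3 and at 48.6 and 46.3 FPKM in cKO 1 and 2. The 2 cKO libraries nearly agreed, and control replicate 1 was well above the other controls. The mean was 47.4 ± 1.61 FPKM (SD, n = 2) against 99.1 ± 36.3 (SD, n = 3), or 47.8% of the control mean. The log2 change was -0.99 (SE 0.30), with a limma adjusted p of 0.575 over all loci and an exact two-sided permutation p of 0.1, the smallest that the 10 splits of 5 libraries allow. Leaving out control replicate 1 gave -0.71, and leaving out control replicate 2 gave -1.18. The log2 fold change in the authors' deposited table was -1.06.

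The other listed members of the Kcnq1 cluster, to which Cdkn1c belongs, were too low to test. Kcnq1ot1, the paternally expressed noncoding RNA that silences this cluster, was between 0.325 and 0.864 FPKM in all libraries. Phlda2, a maternally expressed regulator of placental growth, was listed at 0 in control 1 and in both cKO libraries and at 0.228 and 0.192 FPKM in controls 2 and 3. Ascl2, a transcription factor of the placenta, was between 0 and 0.122 FPKM. Other genes of this region, Osbpl5 and Cd81 among them, were measured as neighbours and are given with that list.

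Igf2 and H19, the neighbouring pair of growth factor and maternal noncoding RNA, overlapped between the groups. Igf2 (chromosome 7, 142650768 to 142666816) encodes insulin-like growth factor 2 and was at 18.9, 18.4 and 11.5 FPKM in controls 1 to 3 and at 19.1 and 14.503 FPKM in cKO 1 and 2. Its log2 change was 0.06 (SE 0.26). H19 (chromosome 7, 142575530 to 142578146), whose locus also holds the microRNA gene Mir675, was at 27.7, 43.9 and 35.2 FPKM in controls and at 44.03 and 25.3 FPKM in the cKO. The 2 cKO libraries were the highest and the lowest of the 5 for H19. The ratio of Igf2 to H19 FPKM was 0.681, 0.419 and 0.327 in controls and 0.433 and 0.573 in the cKO, so the balance of the pair also overlapped. The difference of the mean log2 ratio was 0.14 (exact permutation p = 0.8). Control replicate 2 was not the lowest library for either gene.

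Meningeal cells express Igf2 strongly, and their markers were therefore read beside it. The 10 meningeal markers summed to 5.43, 25.3 and 5.50 FPKM in controls 1 to 3 and to 7.62 and 4.84 FPKM in cKO 1 and 2. Lum was listed at 0 in controls 1 and 3 and in cKO 2, Aldh1a2 in control 3 and Slc6a13 in cKO 2. The rest were above 0 in every library, with Foxc1 between 0.820 and 1.69 FPKM and Col3a1 between 1.12 and 7.56 FPKM. The 12 vascular markers summed to between 91.3 and 109 FPKM in controls and to 109 and 117 FPKM in the cKO. In control replicate 2, where the meningeal sum was highest, Igf2 was at 18.4 FPKM. It was higher in control 1 (18.9 FPKM) and cKO 1 (19.1 FPKM), where the meningeal sums were only 5.43 and 7.62 FPKM. The level of Igf2 thus did not follow the meningeal sum across the libraries. The part of these cells in the level of Igf2 was not tested.

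The other growth regulators differed little between groups. Grb10, an adaptor that restrains insulin and growth factor receptors, was at 57.3, 78.02 and 57.2 FPKM in controls and at 57.99 and 66.6 FPKM in the cKO. Igf2r, the receptor that clears insulin-like growth factor 2, was at 12.5, 13.5 and 11.8 FPKM in controls and 11.2 and 12.1 FPKM in the cKO. Both overlapped, with log2 changes of -0.03 (SE 0.19) and -0.11 (SE 0.13). The direction for Grb10 was not stable: the log2 change was 0.02 with upper quartile scaling, 0.05 with quantile normalization and 0.12 without control replicate 2. Airn, the antisense noncoding RNA that silences Igf2r on the paternal allele, was between 0.561 and 1.25 FPKM and was not tested. Plagl1, a zinc finger factor that limits proliferation, was at 29.1, 43.3 and 29.9 FPKM in controls and 26.5 and 29.6 FPKM in the cKO. Its locus also carries the symbol Hymai, and its values cannot be assigned to 1 of the 2.

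Ddc, a neighbour of Grb10 that encodes the decarboxylase of dopamine and serotonin synthesis, differed more among controls than between groups. It was at 12.6, 0.427 and 2.90 FPKM in controls 1 to 3 and at 1.20 and 1.21 FPKM in cKO 1 and 2. The cKO libraries lay between control replicate 2 and control replicate 3. The log2 change was -0.94 (SE 0.91, limma adjusted p = 0.697), while the log2 fold change in the authors' deposited table, marked significant, was -2.14. With limma it was -1.72 when control replicate 2 was left out and -0.10 when control replicate 1 was.

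The Dlk1-Dio3 cluster on chromosome 12 held 7 members, of which 6 were tested. On the paternal chromosome it expresses Dlk1, a Notch-related membrane protein, Rtl1, a retrotransposon-derived protein, and Dio3, the deiodinase that inactivates thyroid hormone. On the maternal chromosome it expresses the noncoding RNAs Meg3, Rian and Mirg, which host arrays of snoRNAs and microRNAs. Of the 6 tested loci, 5 were lowest in control replicate 2.

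Dlk1 varied by more among controls than between groups. It was at 21.2, 1.74 and 19.8 FPKM in controls 1 to 3 and at 6.10 and 13.003 FPKM in cKO 1 and 2. The cKO libraries lay below 2 controls and above control replicate 2. The log2 change was -0.12 (SE 0.99), with -1.11 after leaving out control replicate 2 and 0.40 after leaving out control replicate 1. Rtl1 was between 0.313 and 1.21 FPKM in controls and at 0.436 and 0.232 FPKM in the cKO, under the level for testing.

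Meg3 (chromosome 12, 109540996 to 109571729) was lower in both cKO libraries than in every control. It was at 333, 208 and 200.4 FPKM in controls and at 182 and 121 FPKM in the cKO, or 152 ± 43.0 (SD, n = 2) against 247 ± 74.2 (SD, n = 3). Control replicate 1 lay well above the other 2 controls, which were close to the higher cKO library. Its log2 change was -0.69 (SE 0.30, limma adjusted p = 0.575), -0.46 without control replicate 1 and -0.40 without cKO replicate 2. Rian, from the same chromosome and strand, was not lower: it was at 85.3, 23.2 and 57.9 FPKM in controls and at 55.6 and 75.9 FPKM in the cKO. The ratio of Rian to Meg3 FPKM was 0.257, 0.111 and 0.289 in controls and 0.305 and 0.626 in the cKO, so both cKO libraries exceeded every control (exact permutation p = 0.2 for the log2 ratio).

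Dio3 (chromosome 12, 110279230 to 110281097) was higher in both cKO libraries than in every control. It was at 2.60, 0.850 and 4.16 FPKM in controls 1 to 3 and at 6.17 and 5.87 FPKM in cKO 1 and 2. The 2 cKO libraries were close to each other while the controls spread widely. The mean was 6.02 ± 0.211 FPKM (SD, n = 2) against 2.54 ± 1.66 (SD, n = 3), a ratio of 2.37. The log2 change was 1.11 (SE 0.44), with a limma adjusted p of 0.575 over all loci and an exact permutation p of 0.2. Without control replicate 2 the log2 change was 0.70. Its q-value of 0.0509 in the authors' deposited table went with a log2 fold change of 1.25.

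At Dio3os and Mirg, single libraries set the group means. Dio3os, a noncoding RNA beside Dio3, was at 0.801, 0.181 and 1.25 FPKM in controls, at 219.97 FPKM in cKO 1 and at 1.94 FPKM in cKO 2. Only cKO 1 was high. The log2 change of Dio3os was 3.92 (SE 1.74) with all libraries, 0.80 without cKO replicate 1 and 7.03 without cKO replicate 2, where its adjusted p of 0.0436 in limma was the single member call under any setting tried. Mirg was at 66.5, 4.42 and 7.19 FPKM in controls and at 61.2 and 7.55 FPKM in the cKO, so 1 library of each group was high.

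Both loci join the noncoding RNA to microRNA genes in the deposited table, Dio3os with Mir1247 and Mirg with Mir369, Mir410 and Mir412. Their values cannot be assigned to the long RNA or to a hairpin. Of the 8 mature microRNAs at these joined loci, 5 are shown, both arms of Mir1247 and the 3p arm of each Mirg hairpin, because the high values of Dio3os and Mirg were measured over loci that include them. Sequences are from RefSeq, GRCm38.p6, written 5′ to 3′ with the seed (bases 2 to 8) in capitals.
mmu-miR-1247-5p: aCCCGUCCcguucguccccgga
mmu-miR-1247-3p: cGGGAACGucgagacuggagc
mmu-miR-410-3p: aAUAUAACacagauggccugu
mmu-miR-369-3p: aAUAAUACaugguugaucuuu
mmu-miR-412-3p: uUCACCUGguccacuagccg
These 5 microRNAs have 5 different seeds, as do all 13 mature microRNAs of the 7 microRNA genes joined to member loci. The Mir1247 hairpin spans 82 bases (chromosome 12, 110278048 to 110278129) across the annotated 5′ end of Dio3os (110275384 to 110278068). Mir412, Mir369 and Mir410 lie within Mirg. Over the whole table, the loci at which the highest library exceeded the next by more than 5 times were counted. They were 5 of 97 tested loci that joined a microRNA to another gene (5.15%). They were 2 of 178 loci with microRNA symbols only (1.12%) and 51 of 12397 other loci (0.411%). Dio3os, which prompted the count, is itself 1 of the 5, so the first share does not stand apart from it. The part of the hairpins in the values of Dio3os and Mirg was not tested.

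The Snrpn-Ube3a cluster, whose loss on the paternal or the maternal chromosome causes Prader-Willi or Angelman syndrome in humans, held members in both directions. Ube3a, a ubiquitin ligase gene expressed from the maternal allele in neurons, was at 19.9, 13.01 and 14.7 FPKM in controls and at 19.96 and 21.7 FPKM in the cKO. The lower cKO library and control replicate 1 were nearly equal. Its log2 change was 0.39 (SE 0.20, limma adjusted p = 0.575). Mkrn3, a paternally expressed ring finger gene, was at 7.98, 6.74 and 8.50 FPKM in controls and at 6.42 and 6.33 FPKM in the cKO. Here too the groups did not overlap but the nearest libraries were close, and the log2 change was -0.24 (SE 0.15).

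The remaining genes of this cluster overlapped between groups. Ndn, a paternally expressed growth suppressor of neurons, was at 497, 233 and 465 FPKM in controls and at 392 and 488 FPKM in the cKO. Magel2, a relative of Ndn in protein trafficking, was at 17.6, 3.05 and 18.05 FPKM in controls and at 9.45 and 10.5 FPKM in the cKO. The shared locus of Snrpn and Snurf, which encodes a splicing protein and a short upstream reading frame, was at 139, 68.4 and 102 FPKM in controls and 88.6 and 119 FPKM in the cKO. Each of the 3 was lowest in control replicate 2. Without that library the log2 changes were -0.14 for Ndn, -0.78 for Magel2 and -0.21 for Snrpn, against 0.21, -0.04 and 0.06 with it.

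The 3 members of the Peg3 cluster overlapped between groups. Peg3, a zinc finger protein of growth and maternal behaviour, was at 36.7, 16.8 and 33.2 FPKM in controls 1 to 3 and at 23.3 and 26.4 FPKM in cKO 1 and 2. Usp29, a paternally expressed ubiquitin protease, was at 14.3, 4.67 and 8.64 FPKM in controls and at 9.52 and 9.64 FPKM in the cKO. Zim1, a maternally expressed zinc finger gene, was at 2.76, 0.601 and 1.99 FPKM in controls and at 1.63 and 1.89 FPKM in the cKO. All 3 were highest in control replicate 1 and lowest in control replicate 2, as were 17 of the 39 members, while control 3 was above both cKO libraries for Peg3 and Zim1 and below both for Usp29. Their log2 changes were -0.14 (SE 0.35), 0.17 (SE 0.41) and 0.07 (SE 0.39), and without control replicate 2 all 3 were negative.

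Peg3 and Usp29 are read in opposite directions from starts that lie 164 bases apart, so their RefSeq promoter windows (250 bases before to 50 after the start) share 263 bases. The window is printed because the 2 genes share it. The sequence is from RefSeq, GRCm38.p6, chr7:6730333-6730632 on the plus strand, with each CG pair, the site of the methylation that marks the silent allele, in capitals.
Usp29: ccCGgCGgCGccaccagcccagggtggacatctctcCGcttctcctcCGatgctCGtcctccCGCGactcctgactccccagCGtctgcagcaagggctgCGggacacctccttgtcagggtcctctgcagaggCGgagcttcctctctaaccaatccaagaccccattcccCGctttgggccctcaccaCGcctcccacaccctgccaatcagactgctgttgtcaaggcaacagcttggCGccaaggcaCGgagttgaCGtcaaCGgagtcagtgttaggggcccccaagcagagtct
It held 17 CG pairs, where the median over 32851 RefSeq promoter windows was 7. The ratio of Usp29 to Peg3 FPKM was 0.389, 0.277 and 0.261 in controls and 0.409 and 0.365 in the cKO.

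In the Peg10-Sgce cluster on chromosome 6, the groups overlapped at all 4 tested members. Peg10, a retrotransposon-derived gene needed in the placenta, was at 40.8, 10.3 and 33.03 FPKM in controls and at 27.9 and 52.6 FPKM in the cKO. Asb4, a maternally expressed ubiquitin ligase adaptor of hypothalamic neurons, was at 6.71, 2.16 and 8.63 FPKM in controls and at 6.40 and 16.5 FPKM in the cKO. Calcr, the calcitonin receptor gene, was at 2.87, 0 and 1.85 FPKM in controls and at 0.496 and 0.880 FPKM in the cKO. All 3 were lowest in control replicate 2, and for Asb4 and Peg10 the highest library was cKO 2. In the authors' deposited table Asb4 was marked significant, at a log2 fold change of 0.97, while the limma log2 change was 0.88 (SE 0.59, adjusted p = 0.620), 0.40 without control replicate 2 and 0.26 without cKO replicate 2. Sgce, the sarcoglycan gene beside Peg10, did not follow it, at 12.3, 10.9 and 13.7 FPKM in controls and 12.3 and 7.39 FPKM in the cKO.

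Mest was higher in both cKO libraries than in every control. Mest (chromosome 6, 30733506 to 30748466) is a paternally expressed gene of mesoderm and brain that encodes a hydrolase-like protein. It was at 101, 75.7 and 106 FPKM in controls 1 to 3 and at 112 and 157 FPKM in cKO 1 and 2, or 134 ± 31.4 (SD, n = 2) against 94.04 ± 16.1 (SD, n = 3). The nearest libraries, control 3 and cKO 1, were closer to each other than the 2 cKO libraries were. Its log2 change was 0.51 (SE 0.23, limma adjusted p = 0.575), 0.36 without control replicate 2 and 0.27 without cKO replicate 2. Copg2, a coatomer gene that overlaps Mest by 913 bases in RefSeq, was at 37.5, 30.8 and 35.8 FPKM in controls and 34.5 and 37.1 FPKM in the cKO. The ratio of Mest to Copg2 FPKM was 2.69, 2.46 and 2.95 in controls and 3.25 and 4.22 in the cKO, so it did not overlap between groups (exact permutation p = 0.1).

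The zinc finger protein ZFP57 binds the methylated motif TGCCGC at imprinted control regions and helps to protect their methylation. The promoter windows of members were searched for TGCCGC on both strands. It was found in 15 of 58 member windows (25.9%), against 11.6% of all 32851 windows, with similar shares for paternally (9 of 31, 29.0%) and maternally expressed members (3 of 11, 27.3%) and 18.8% for context-dependent members. Windows of 1 gene can overlap, as for Mest, and Snrpn and Snurf share a window, so windows are not independent. Counted by symbol, 14 of 38 members (36.8%) held the motif, against 13.1% of all symbols. Member windows were also richer in CG pairs, with a median of 10 for paternally, 10 for maternally expressed and 21.5 for context-dependent members against 7 for all windows, and the motif itself holds a CG pair. A window of Mest is printed as an example with 2 matches, in a member whose groups did not overlap. It is from RefSeq, GRCm38.p6, chr6:30737800-30738099 on the plus strand, with the matches in capitals on the printed strand as GCGGCA.
Mest: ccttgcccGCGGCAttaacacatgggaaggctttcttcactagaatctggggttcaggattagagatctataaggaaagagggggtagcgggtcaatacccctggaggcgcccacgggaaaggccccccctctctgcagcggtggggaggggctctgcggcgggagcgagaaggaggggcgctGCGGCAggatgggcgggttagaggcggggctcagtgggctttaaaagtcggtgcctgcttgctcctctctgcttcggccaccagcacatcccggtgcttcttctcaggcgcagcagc
A match describes the letters of the window and is not a binding site. DNA methylation was not measured in these libraries.

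**Figure D3:**
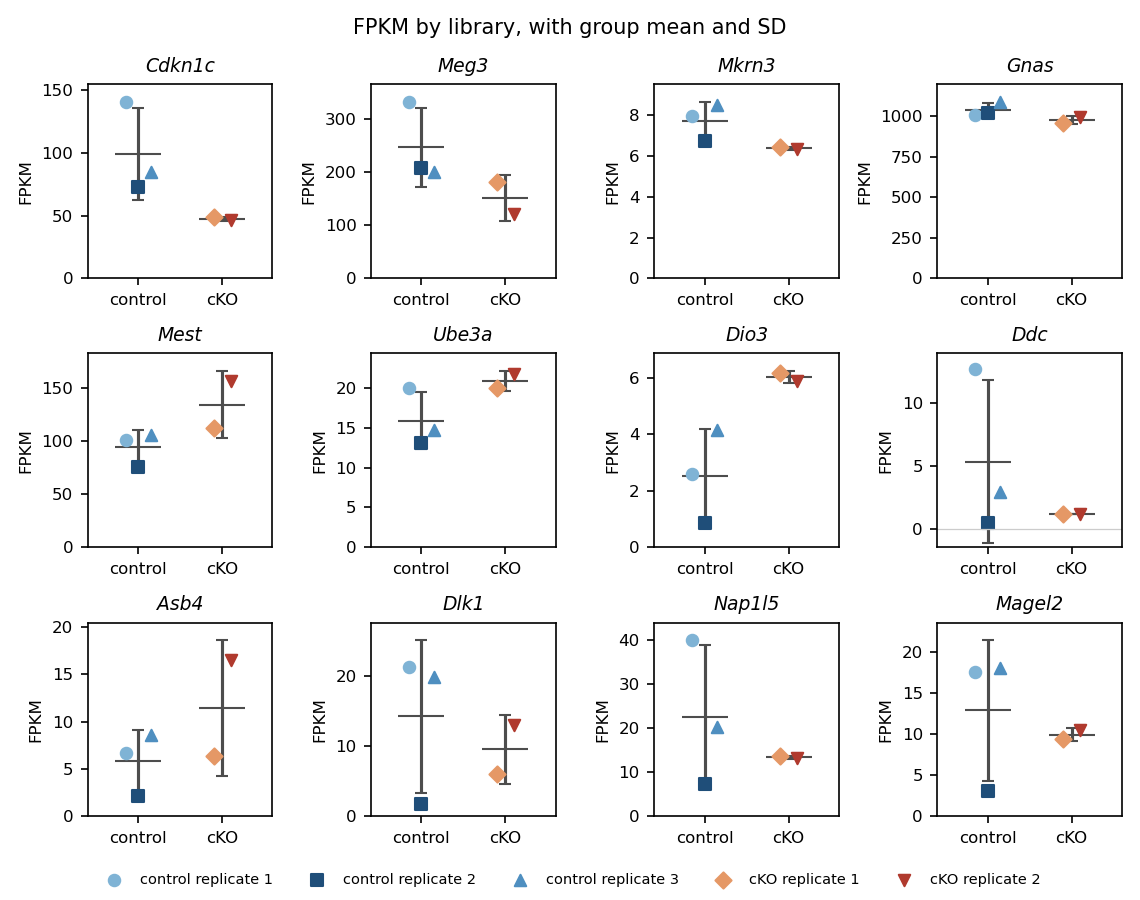
FPKM of 12 members in the 3 control and 2 cKO libraries, each panel with its own axis, symbols for libraries, horizontal bars for group means and vertical bars for the SD. Both cKO libraries are below every control for Cdkn1c, Meg3, Mkrn3 and Gnas and above for Mest, Ube3a and Dio3, while control replicate 2 is the lowest library for Ddc, Asb4, Dlk1, Nap1l5 and Magel2.

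Nnat and Gnas were the most abundant members. Nnat, a paternally expressed membrane proteolipid of developing neurons, was at 3004, 1845 and 3077 FPKM in controls 1 to 3 and at 2909.8 and 1181 FPKM in cKO 1 and 2. The 2 cKO libraries thus lay on either side of control 2, and the log2 change was -0.47 (SE 0.47). Blcap, a gene whose intron holds Nnat, was at 94.8, 47.3 and 70.7 FPKM in controls and 81.5 and 69.4 FPKM in the cKO. Gnas, which encodes the stimulatory G protein alpha subunit, was at 1005, 1017 and 1087 FPKM in controls and 959 and 996 FPKM in the cKO. Its groups did not overlap, but the cKO mean was 94.4% of the control mean and the log2 change was -0.08 (SE 0.18), which became 0.13 with quantile normalization. Nespas, the antisense RNA of the Gnas cluster, was between 0.471 and 0.686 FPKM and was not tested.

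Members in smaller clusters overlapped between groups. Nap1l5, a paternally expressed nucleosome assembly gene, was at 40.03, 7.45 and 20.3 FPKM in controls and at 13.7 and 13.2 FPKM in the cKO, with a log2 change of -0.43 (SE 0.64) that ranged from -1.04 without control replicate 2 to 0.10 without control replicate 1. Peg13, a noncoding RNA within Trappc9, was at 86.5, 47.4 and 60.4 FPKM in controls and at 66.9 and 75.3 FPKM in the cKO. Trappc9, a trafficking gene with maternal bias in brain, was at 24.5, 28.3 and 25.1 FPKM in controls and at 24.7 and 23.9 FPKM in the cKO. Control replicate 2 was the lowest library for Peg13 and the highest for its host. Zrsr1, a splicing factor gene in an intron of Commd1, was between 3.32 and 5.27 FPKM in controls and at 4.97 and 3.12 FPKM in the cKO. Commd1, a copper homeostasis gene, was between 51.96 and 62.8 FPKM in controls and at 53.9 and 55.2 FPKM in the cKO.

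Inpp5f, an inositol phosphatase gene, was at 80.8, 41.997 and 61.3 FPKM in controls and at 71.4 and 64.7 FPKM in the cKO. Impact, a translational regulator of neurons, was between 6.40 and 10.7 FPKM in controls and at 8.70 and 10.01 FPKM in the cKO. Zdbf2, a gene linked to body growth through the hypothalamus, was between 3.50 and 8.91 FPKM in controls and at 5.92 and 7.99 FPKM in the cKO. In all 3 the controls spanned the cKO libraries, with control replicate 2 lowest and control replicate 1 highest. Rasgrf1, an exchange factor for Ras, was between 1.12 and 2.65 FPKM in controls and at 2.42 and 0.840 FPKM in the cKO. Slc38a4, an amino acid transporter of placenta and liver, was at most 0.348 FPKM in every library and was not tested.

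Across members, control libraries differed from each other in a shared direction. Control replicate 2 was the lowest of the 5 libraries at 24 of 39 member loci (61.5%), against 28.0% of all tested loci. Control replicate 1, the single c/+ library, was the highest at 20 of 39 (51.3%), against 24.1% of all loci. Both held at 17 loci (43.6%), against 11.9%. Low values in control replicate 2 were not particular to imprinted members. It was also the lowest library for 7 of 10 pan-neuronal, 7 of 12 ventral telencephalic and 2 of 3 tested hypothalamic markers. For cortical markers it was lowest at 1 of 12, and for intermediate progenitor markers at 1 of 8. The value in control replicate 2 was at most 50% of the mean of control replicates 1 and 3 at 16 of 39 members (41.0%), against 6.78% of all loci. These 16 ranged from Calcr, listed at 0, and Ddc, at 5.50%, through Dlk1 at 8.46% and Magel2 at 17.1% to Ndn at 48.5%. By parental expression they were 9 paternally expressed, 5 maternally expressed and 2 context-dependent loci. The pattern did not extend to every cluster: in control replicate 2 Igf2 and H19 were not low, Meg3 was not the lowest, and Trappc9 was the highest while its neighbour Peg13 was the lowest.

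**Figure D4:**
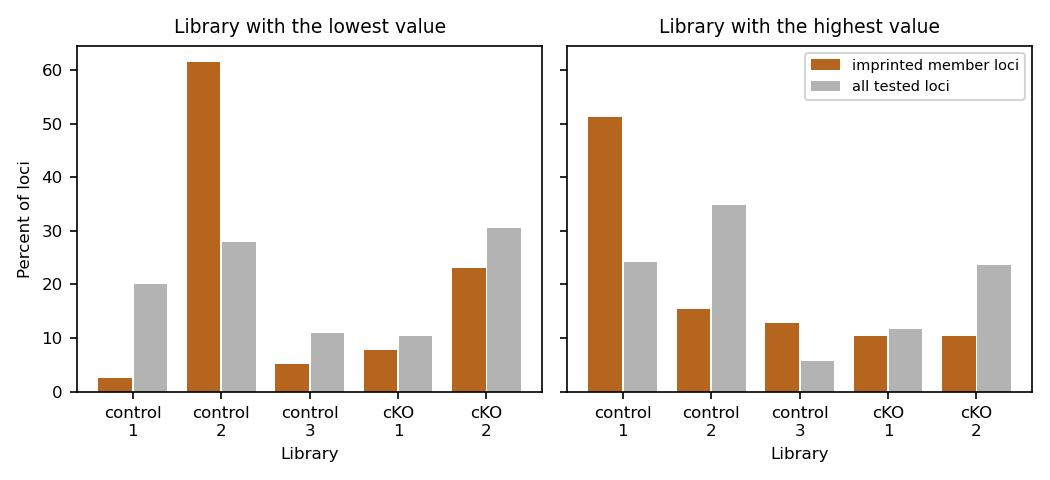
Percent of loci at which each library had the lowest (left) or the highest (right) value of the 5, for the 39 imprinted loci and for all 12672 tested loci. Control replicate 2 is lowest at 61.5% of imprinted loci against 28.0% of all loci.

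Some hypothalamic markers were also lowest in control replicate 2. The 7 hypothalamic markers summed to 43.9, 10.4 and 69.5 FPKM in controls 1 to 3 and to 21.9 and 70.5 FPKM in cKO 1 and 2, made up largely of Otp and Nkx2-1 except in control replicate 2, where Pomc was the highest of the 7. Otp, a transcription factor of hypothalamic neuroendocrine neurons, was at 14.9, 0 and 12.1 FPKM in controls and at 3.68 and 2.44 FPKM in the cKO. Nkx2-1, a transcription factor of the hypothalamus and the ventral telencephalon, was at 21.3, 4.12 and 46.7 FPKM in controls and at 14.4 and 64.5 FPKM in the cKO. Both were lowest in control replicate 2, and Otp was listed at 0 there alone. Rax was listed at 0 in control replicate 2 and in both cKO libraries, and Hcrt in controls 1 and 2 and in cKO 2. Pomc, a neuropeptide precursor gene, was not lowest there, at 4.79, 5.48 and 7.23 FPKM in controls and 2.53 and 1.93 FPKM in the cKO, nor was Agrp, another neuropeptide gene, at 1.18, 0.841 and 0.383 FPKM and 0.465 and 1.06 FPKM. Dlk1, Magel2, Calcr and Nap1l5 followed the order of Otp in so far as controls 1 and 3 were above both cKO libraries and control replicate 2 was lowest. The same order held for the members Peg3, Zim1 and Ddc and for the pan-neuronal marker Nefl. It was therefore not particular to hypothalamic markers and the members named beside them. Asb4 and Peg10 instead shared with Nkx2-1 the highest value in cKO 2 and the lowest in control replicate 2.

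**Figure D5:**
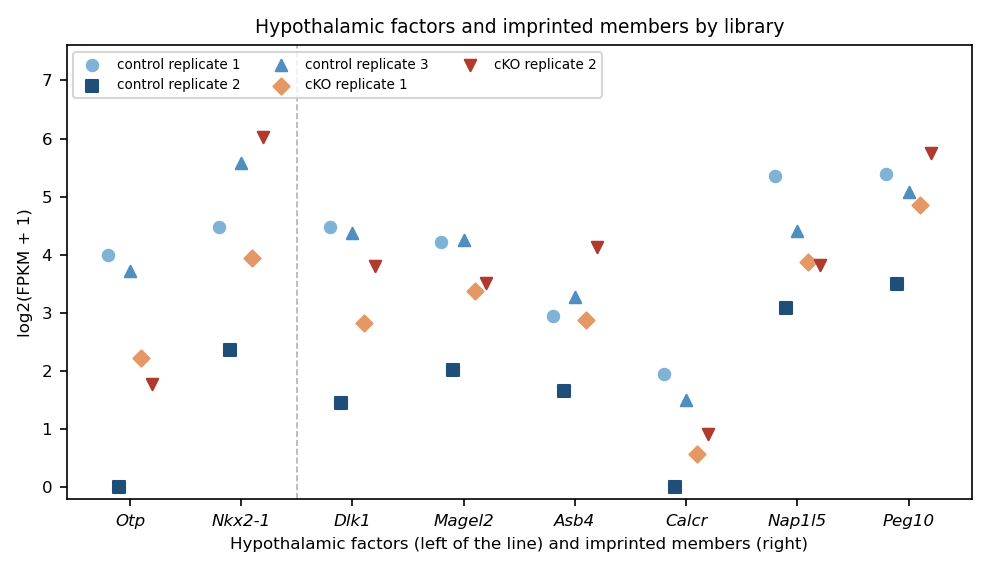
Levels as log2(FPKM + 1) of 2 hypothalamic markers, Otp and Nkx2-1 (left), and of the members Dlk1, Magel2, Asb4, Calcr, Nap1l5 and Peg10 (right) in the 3 control and 2 cKO libraries. Otp is 0 in control replicate 2, the library in which all 6 members are lowest, as are 24 of the 39 tested members. Pomc and Agrp, hypothalamic markers not shown, are not lowest in that library.

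Markers of other cells also moved with the libraries. The 10 pan-neuronal markers summed to 2803, 2052 and 2432 FPKM in controls and to 2717 and 2107 FPKM in the cKO, and 8 markers of intermediate progenitors to 378, 724 and 486 FPKM and to 346 and 301 FPKM. The 12 ventral telencephalic markers summed to 334, 281 and 429 FPKM in controls and to 555 and 586 FPKM in the cKO, so both cKO libraries were above every control. The same held for the sum of 12 microglial markers, at 34.8, 52.2 and 42.0 FPKM against 111 and 105 FPKM. Taken singly, 8 of the 12 ventral telencephalic and 11 of the 12 microglial markers were higher without overlap, against 13.4% of all loci. The 8 choroid plexus markers summed to 45.3 FPKM in control 1 and to between 3.14 and 9.25 FPKM in the other libraries, but Otx2 alone gave 42.3 FPKM of the first sum, and the defining marker Ttr was at 0.07 FPKM there and at most 3.77 FPKM elsewhere. The part of these cells in the values of Cdkn1c, Meg3, Dio3, Mest and the other members was not tested.

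Without control replicate 2, more members lay lower in the cKO. Both cKO libraries were then below the remaining controls at 13 of 39 members (33.3%), against 19.7% of all loci, and above them at 5 members, against 18.1%. The 13 were Cdkn1c, Meg3, Mkrn3 and Gnas together with Dlk1, Peg3, Zim1, Sgce, Ddc, Magel2, Nnat, Nap1l5 and Calcr. In limma, none of the 39 passed an adjusted p under 0.05 in that comparison either, while at an unadjusted p under 0.05 there were 7 lower members (17.9%), against 2.77% of all loci, and 1 higher member, against 2.19%. Without control replicate 1, the c/+ library, both cKO libraries were above the remaining controls at 9 members, against 27.7% of all loci, and below them at 7, against 28.6%. Which control library is kept thus set the count of non-overlapping members. Control replicate 2 had been set apart for its low member values, so leaving it out raised the control means of many members by selection. No conclusion is drawn from the member shares without it.

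The machinery that keeps imprints was measured beside the members. Of 24 genes for imprint maintenance and allelic silencing, 21 were tested, none passed limma at an adjusted or an unadjusted p under 0.05, and their median log2 change was -0.02. Zfp57, which protects methylated control regions, was at 88.9 ± 12.9 FPKM (SD, n = 2) in the cKO and 91.9 ± 10.6 FPKM (SD, n = 3) in controls. Ctcf, the insulator protein, was at 45.1 ± 3.66 FPKM against 50.2 ± 2.12 FPKM, so both cKO libraries were below every control, by a log2 change of -0.15 (SE 0.13). These 2 were named for their roles at control regions, after their values were seen. The 4 genes of the list with the smallest unadjusted p were Rbbp4, a histone chaperone, at 77.8 ± 11.3 against 60.1 ± 4.61 FPKM, Ehmt2, a histone methyltransferase, at 69.2 ± 36.4 against 112 ± 15.5 FPKM, Smchd1, a silencing protein, at 18.2 ± 2.14 against 14.56 ± 1.05 FPKM, and Mbd3, a subunit of a deacetylase complex, at 102 ± 52.2 against 195 ± 70.1 FPKM. Rbbp4 and Smchd1 were higher and Ehmt2 lower in both cKO libraries than in every control, while Mbd3 overlapped. For Ehmt2, cKO 1 (94.9 FPKM) was close to control 1 (101 FPKM) and cKO 2 was at 43.5 FPKM. For Mbd3, cKO 1 (139 FPKM) was above control 1 (123 FPKM) and cKO 2 was at 65.4 FPKM. The low means of both thus rested largely on cKO 2. Ehmt2 and Mbd3 were marked significant, as lower, in the authors' deposited table. In the whole list 4 of 21 tested genes were higher and 3 lower without overlap, against the 13.4% and 15.6% of all loci.

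The insulin-like growth factor pathway, in which Igf2 and Igf2r act, gave no call in limma. Of its 16 other genes, 13 were tested, none passed limma at an adjusted or an unadjusted p under 0.05, and the median log2 change was -0.10. Igfbp2, a binding protein for the growth factors, was lower in both cKO libraries than in every control, at 126 ± 17.6 FPKM (SD, n = 2) against 199 ± 58.6 FPKM (SD, n = 3). The authors' deposited table marked Igfbp2 and Igfbp5 as significant, both lower in the cKO, though the groups overlapped for Igfbp5. Among 35 neighbours of the clusters and other imprinted genes, 34 were in the table and 23 were tested, with a median log2 change of -0.03. None passed at an adjusted p under 0.05, and 1, Osbpl5, had an unadjusted p under 0.05. Osbpl5, a lipid transfer gene near Cdkn1c, was at 11.3 ± 0.896 FPKM in the cKO and 17.3 ± 3.51 FPKM in controls, and Cd81, a tetraspanin gene of the same region, was at 104 ± 12.5 FPKM and 82.8 ± 4.89 FPKM. Osbpl5 and Cd81 thus lay on opposite sides of control. Other tested genes of this region overlapped between groups: Nap1l4 (log2 change 0.01, SE 0.14), Dhcr7 (-0.03, SE 0.13) and Tssc4 (-0.33, SE 0.28).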

How the data were processed

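RNA-seq values were taken from 1 deposited table of FPKM per locus and library, with the authors' comparison of the groups beside them. The header does not name the unit, and FPKM was inferred from non-whole values and Cufflinks locus names. Per the submitters' processing notes, CASAVA, TopHat, Cufflinks, Bowtie2 and MACS and the build mm10 were used in the series. Their versions and roles, the annotation and the strand setting were not given in the sources used here. Besides FPKM, the authors' deposited columns hold a log2 fold change, a test statistic (a score, not used), a p-value and a q-value, and are quoted only as the authors' deposited table. Overlapping members, such as Copg2 with Mest, Blcap with Nnat and Airn with Igf2r, cannot be told apart where their reads fall on shared bases. Whole reads could not be recovered, so depth is unknown and no counting interval is given. A sample protocol names Eed, while titles and genotypes name Chd8, which the level of Chd8 follows.

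Testing took loci whose mean reached 1 FPKM, on log2(FPKM + 1), with limma 3.58.1 in R 4.3.3 (intensity trend, 3 residual degrees of freedom, Benjamini-Hochberg adjustment over all 12672 loci, threshold 0.05). The code was tested on simulated data. Single values and log2 ratios of neighbours were compared by exact two-sided permutation of the 5 libraries. Groups do not overlap where both cKO libraries lie above, or below, every control. Members, allele classes and gene lists were chosen with earlier results of these data known. Every library's value is given for tested members that do not overlap, lead their cluster or have a measured partner of opposite parental expression, and for others that help describe a cluster. Of further lists, up to 4 genes with the smallest p are named. Alternatives were pseudocounts of 0.1 and 0.5, no filter or a mean of 5 FPKM, upper quartile and quantile scaling, no trend, a replicate block and leaving out each library. Leaving out loci joined to a microRNA was added after seeing the data. Of 47 symbols, 46 matched RefSeq GRCm38.p6, the patched form of the mm10 build, which gives the coordinates and sequences, and 38 had a promoter window.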

Additional observations from a re-analysis of the deposited data

How the results depend on the processing

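With 3 controls and 2 cKO libraries, exact permutation cannot reach p under 0.1, and the depth behind each FPKM value is unknown. The number of members called by limma stayed at 0 in each direction under every alternative tried, except for a range of 0 to 1 higher when libraries were left out (1, Dio3os at 7.03, without cKO replicate 2). Members that did not overlap ranged from 4 to 9 (higher) and from 5 to 13 (lower) when a library was left out. The shares of all loci rose too, above the 13.4% (higher) and 15.6% (lower) with every library kept. The 9 higher members, without control replicate 1, were 23.1% of members against 27.7% of all loci. The 13 lower members, without control replicate 2, were 33.3% against 19.7%, but that library had been set apart for its low member values. With every library kept, 2 members were lower with upper quartile scaling and 2 with quantile normalization. The shares of all loci under these scalings were not computed, so these counts cannot be set against a background. When a library was left out, the medians ranged from -0.17 to 0.30 for paternally expressed, from -0.35 to 0.16 for maternally expressed and from -0.10 to 0.02 for context-dependent members, and the last was 0.12 with quantile normalization. Without loci joined to a microRNA, an alternative chosen after seeing the data, the maternal median was 0.07 and the context-dependent median -0.04.

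Replicate numbers 1 and 2 occur in both groups, but the labels do not say that they mark shared litters or days, and deviations of same-numbered libraries correlated at -0.07 and -0.11. In the fit with a replicate block, 0 members were called and the medians were 0.11, 0.05 and -0.05. The log2 change turned in sign under the block for Igf2 (-0.15), Dlk1 (0.35) and Magel2 (0.34).

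Of the 39 members, 14 kept the sign of their log2 change under every alternative, Cdkn1c, Meg3, Dio3 and Mest among them. When a library was left out the change crossed or reached 0 for 24 members: it ranged from -0.15 to 0.25 for Igf2, from -0.45 to 0.32 for H19, from -1.11 to 0.40 for Dlk1, from -0.11 to 0.81 for Rian, from -0.75 to 2.11 for Mirg, from -0.48 to 0.06 for Peg3, from -0.28 to 0.33 for Zim1, from -0.20 to 0.52 for Usp29, from -0.66 to 0.00 for Sgce, from -0.03 to 0.10 for Copg2, from -0.13 to 0.12 for Grb10 and from -0.14 to 0.41 for Ndn. It ranged from -0.78 to 0.34 for Magel2, from -0.21 to 0.30 for Snrpn, from -1.12 to 0.18 for Nnat, from -0.12 to 0.37 for Blcap, from -0.03 to 0.30 for Impact, from -0.37 to 0.17 for Zrsr1, from -0.12 to 0.01 for Commd1, from -0.05 to 0.41 for Inpp5f, from -1.04 to 0.10 for Nap1l5, from -0.03 to 0.40 for Peg13, from -0.13 to 0.44 for Zdbf2 and from -0.59 to 0.31 for Rasgrf1. Scaling turned the sign for Grb10 (0.02 by upper quartile, 0.05 by quantile), Gnas (0.13 by quantile) and Commd1 (0.02 by quantile), and brought Magel2 (0.00 by upper quartile) and H19 (0.00 by quantile) to 0, as did a pseudocount of 0.1 for Magel2 (0.00). The cause of these turns was not tested.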
